A study of Mus musculus with 3 samples.

Results

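The genes that encode the proteasome were followed in mice of the outbred ICR stock, in skeletal muscle taken at postnatal day 42. Members were the gene rows whose symbol begins with Psma, Psmb, Psmc, Psmd or Psme followed by a digit, without pseudogene symbols that contain -ps, and 45 of the 24481 gene rows met that rule. The 3 groups were a control (NC), an exercise control (EC) and exercise with a treatment labelled SQH (ES), in a study whose title names leaf extracts of the dwarf bamboo Sasa quelpaertensis and fatigue. All 3 groups share stock, age and tissue. The labels give no muscle name, exercise protocol, dose, sex or number of animals behind a library. Each group is 1 library, so differences carry neither replicate error nor p-value, and the groups cannot be told apart from the single libraries that stand for them. Libraries were made by 3' end sequencing, in which a transcript yields reads from its tail end whatever its length. The deposited value is a log2 level whose scaling is not stated in the sources used here. Adjustment for library size is inferred from the spacing of low values, which differs between libraries.

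The proteasome is the barrel-shaped protease that degrades proteins marked with ubiquitin. Its 20S core stacks rings of alpha subunits, which gate the entrance, around rings of beta subunits, of which Psmb5, Psmb6 and Psmb7 carry the catalytic sites. The 19S regulatory cap adds a ring of ATPases (Psmc genes), which unfold and thread the substrate, and non-ATPase subunits (Psmd genes), which bind and remove ubiquitin. Interferon induces the immunoproteasome subunits Psmb8, Psmb9 and Psmb10, which replace Psmb5, Psmb6 and Psmb7, together with the PA28 activator genes Psme1 and Psme2. In muscle the proteasome is known for the breakdown of contractile protein during atrophy, and the transcription factor NFE2L1 is known to raise many subunit genes together when proteasome activity is short, through antioxidant response elements.

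The 45 members were 8 genes of the alpha ring, 7 of the standard beta ring, 4 immunoproteasome or thymic beta genes, 6 ATPases, 11 non-ATPase cap subunits, 3 cap assembly chaperones, 5 activators and Psmc3ip. Psmc3ip met the rule by its symbol but encodes a meiotic recombination protein that is named for binding an ATPase, and it is not a subunit. A level minimum, a mean linear value of at least 66.5 over the 3 libraries, was passed by 39 members. The 6 below it were Psma8, Psmb8, Psmb9, Psmb11, Psmc3ip and Psme2. Psmb2 stood just inside the minimum with a mean linear value of 71.4 and Psme2 just outside it with 47.1. In all, 7857 gene rows passed, and these are the background for every share of genes called, or above another library, below. A gene is called higher or lower when it differs by at least 1.5-fold (0.585 on the log2 scale), and calls at 2-fold (1 on the log2 scale) are given beside it. Where 3 levels of a gene are given, they are deposited log2 levels in the order control, exercise control, SQH. The ± beside a difference is the standard error of counting reads alone, from estimated reads, and covers neither animals nor library preparation.

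The libraries held about 10.8, 8.1 and 12.4 M reads in that order, estimated from the spacing of low values. Skeletal muscle markers were abundant in each, with Acta1 at a log2 level of 18.56, 18.34 and 19.01 and Ckm at 16.59, 17.24 and 17.08 in the same order. The exercise control library stood apart in fibre type. All 8 slow-fibre markers were at least 2-fold below the control there (list median -3.83), beside 5.33% of all rows. All 8 were at least 2-fold higher with SQH than in that library (median 3.49), beside 5.68% of rows. That library enters every difference below except those of exercise plus SQH against control, and the part of its slow-fibre levels in the proteasome results was not tested. In bulk muscle, fewer fibres of a type and less RNA per fibre cannot be told apart.

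Promoter sequence is shown for 6 members. It sets the genes that differed most in opposite directions beside some whose letters match the core of a control element. Windows are from RefSeq (build GRCm38.p6), lie upstream of the transcription start, leave out bases annotated as exons, and read 5′ to 3′ on the gene's strand. Psma3 (chr12:70974523-70974620, plus strand) and Psma5 (chr3:108256826-108256877, plus strand) were the pair with opposite differences of 2-fold between exercise plus SQH and exercise control. Psmb3 (chr11:97703226-97703325, plus strand) had the largest positive difference of the exercise control from the control among members past the level minimum, and its capitals mark an interferon-stimulated response element core (GAAA, any 2 bases, GAAA), read on the other strand. Capitals in the catalytic genes Psmb5 (chr14:54618023-54618095, minus strand) and Psmb6 (chr11:70525257-70525356, plus strand), and in the cap gene Psmd12 (chr11:107479278-107479377, plus strand), mark an antioxidant response element core, TGACNNNGC, which in Psmd12 is read on the other strand.
Psma3: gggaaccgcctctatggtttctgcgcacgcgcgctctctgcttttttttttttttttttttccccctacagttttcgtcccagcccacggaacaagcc
Psma5: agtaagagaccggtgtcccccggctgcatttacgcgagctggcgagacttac
Psmb3: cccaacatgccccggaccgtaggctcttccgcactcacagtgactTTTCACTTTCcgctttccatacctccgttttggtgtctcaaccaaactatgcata
Psmb5: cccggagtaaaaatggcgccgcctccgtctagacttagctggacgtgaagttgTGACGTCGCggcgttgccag
Psmb6: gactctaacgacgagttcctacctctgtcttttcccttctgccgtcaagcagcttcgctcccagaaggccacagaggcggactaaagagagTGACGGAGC
Psmd12: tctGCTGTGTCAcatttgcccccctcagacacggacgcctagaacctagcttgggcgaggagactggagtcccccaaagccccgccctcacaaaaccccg

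Promoter windows of 300 bases, 250 before to 50 after the start, were found for 38 members and searched on both strands. The TGACNNNGC pattern was in 6 of them (15.8%), beside 14.0% of all 27025 genes with a window and 17.6% of the 6011 of those past the level minimum. Further shares are given beside both in that order. These 6 were Psmb5, Psmb6, Psmc6, Psmd9, Psmd12 and Psme4. The interferon-stimulated response element core was in 4 members (10.5%, beside 3.99% and 3.23%), namely Psmb3, Psmd4, Psmd9 and Psme1. The gamma-activated site core TTCNNNGAA was in Psmb8 and Psmd2 (5.26%, beside 9.55% and 7.77%), and the CCAAT box in 15 members (39.5%, beside 41.1% and 42.5%). Of the other symbols, Psma8, Psmb1, Psmb2, Psmb7, Psmc3, Psmd3 and Psmd7 had no window. The patterns do not overlap each other in the windows shown, and a match describes letters only.

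**Figure D1:**
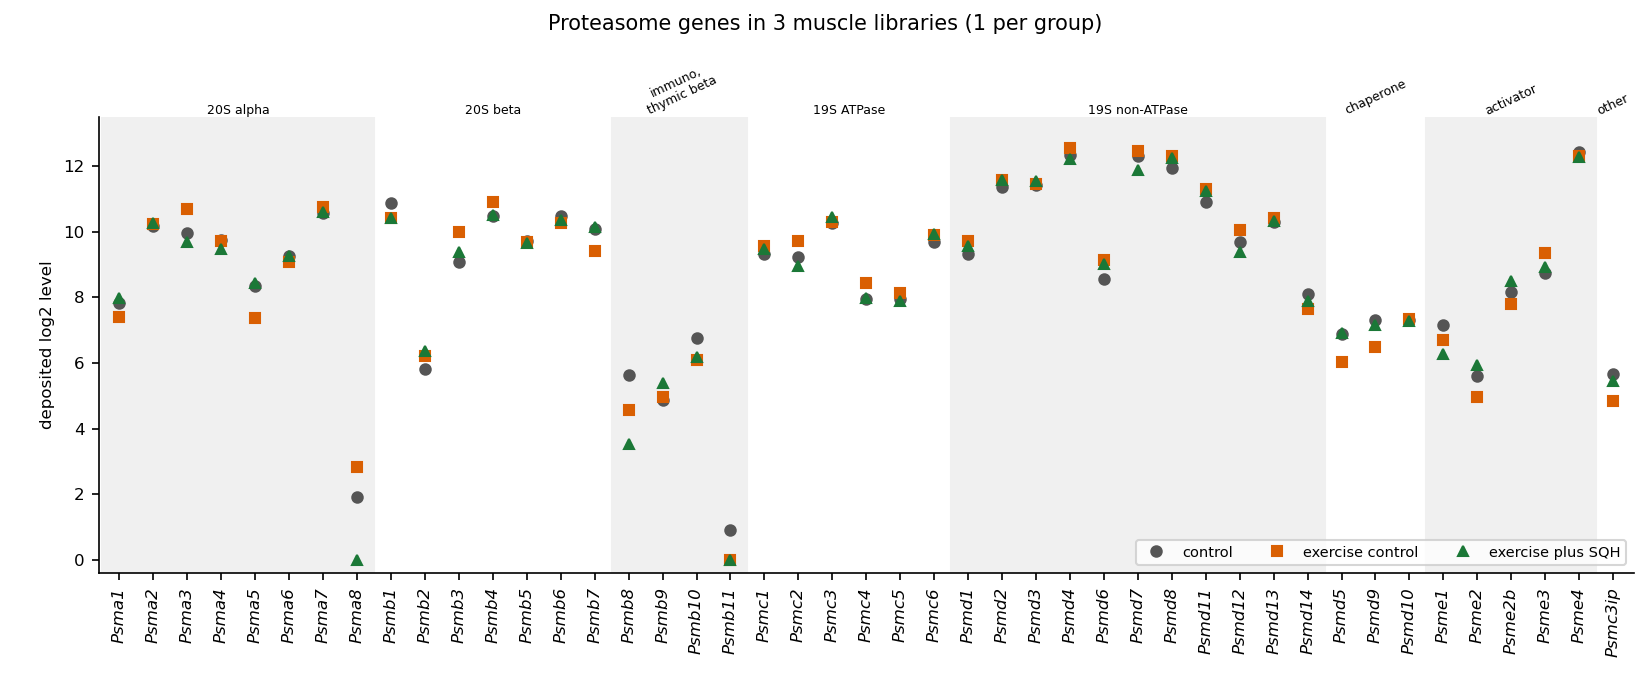
Deposited log2 level (vertical axis) of the 45 members (horizontal axis, grouped by role) in the 3 libraries, with circles for control, squares for exercise control and triangles for exercise plus SQH. Non-ATPase cap genes reach 12.57 (Psmd4 in the exercise control), while the immunoproteasome genes Psmb8 and Psmb9 lie below 6 in every library.

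Most subunits were moderately to highly expressed, and levels differed more between genes than between libraries. In a 3' library a level is per transcript end, not per base, so levels are compared without a length correction, although they also depend on how well the counted end matches the end that is used. Psmd4, which encodes the ubiquitin receptor Rpn10, was the highest cap gene on average at 12.35, 12.57 and 12.23, with Psmd8 slightly above it in the SQH library (12.26). Psme4, the gene of the PA200 activator, stood at 12.45, 12.32 and 12.28. In the core, the alpha gene Psma7 (10.59, 10.75 and 10.60) and the beta gene Psmb4 (10.50, 10.92 and 10.53) were the highest of their rings on average, although Psmb1 lay above both in the control. Psmb2, an essential beta subunit, was far below its ring partners at 5.82, 6.22 and 6.38. Psma8, the alpha subunit of testis proteasomes, was listed at 1.90, 2.84 and 0, and Psmb11, the thymic beta subunit, at 0.90, 0 and 0. Those last 2 genes rest on 6 estimated reads or fewer in any library.

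Summed over all 45 members, the level was 0.485% of the library in the control (95% exact binomial interval 0.481 to 0.489), 0.559% in the exercise control (0.554 to 0.564) and 0.511% with SQH (0.507 to 0.515). Intervals are from estimated reads and cover counting error only. The non-ATPase cap genes were the largest share, at 0.247%, 0.304% and 0.269% in the same order. The ATPases made up 0.0377%, 0.0463% and 0.0430%. The alpha ring held 0.0570%, 0.0655% and 0.0585%, and the standard beta ring 0.0723%, 0.0744% and 0.0722%. Each of these 4 sums was highest in the exercise control, with log2 differences from the control of 0.30 for both cap groups, 0.20 for the alpha ring and 0.04 for the beta ring, whose intervals (0.0707 to 0.0739 in the control and 0.0726 to 0.0763 in the exercise control) overlap. Psmd4, Psmd7 and Psmd8 dominate the cap sum, so counts of genes are given next.

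How the exercise control group differed from the control was asked first. The cap genes were mostly higher and the core genes were divided. Of 17 cap subunits in the symbol rule (ATPase and non-ATPase), 16 lay above the control. The median log2 difference of the 17 was 0.24, with quartiles of 0.15 and 0.40. Cap genes that the rule does not reach were divided, with Adrm1 at 0.71 ± 0.07 and Shfm1 at -0.34 ± 0.06. Of 14 standard core subunits, 6 lay above the control, with a median of -0.03. Over all 7857 rows 46.3% lay above the control and the median was -0.05. Differences were small in size. Among the 39 members 4 were at least 1.5-fold higher (10.3%, beside 10.1% of all rows) and 5 at least 1.5-fold lower (12.8%, beside 15.5%). No member differed by 2-fold, whereas 2.95% of all rows were 2-fold higher and 5.33% 2-fold lower. These shares of calls are near or below the background, which was not matched for level. By direction alone, 94.1% of cap genes lay above the control, and whether cap and core genes differ was not tested, since no replicate gives an error. Of 4 endothelial markers 3 passed the level minimum, and all 3 lay above the control like most cap genes, with a median of 0.27. Tie1, below the minimum, went the other way at 5.49, 5.38 and 5.08 (-0.12 ± 0.32). The 4 markers summed to linear levels of 1617.6, 2197.6 and 1666.7, with Kdr at 9.15, 9.92 and 9.19. The part of endothelial cells in the result was not tested.

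All 6 ATPase genes lay above the control in the exercise control library. Psmc2 stood at 9.24, 9.73 and 8.95, a difference of 0.50 ± 0.08 in the exercise control. Psmc4 stood at 7.94, 8.44 and 7.97 (0.50 ± 0.12). The exercise control was the highest of the 3 libraries for both genes, and the other 2 libraries were within 0.29 of each other. Psmc3, the highest ATPase gene on average, was nearly level at 10.28, 10.31 and 10.46 (0.03 ± 0.06). Psmc5, the lowest on average, stood at 7.94, 8.13 and 7.88 (0.18 ± 0.13), which is within 2 standard errors of counting.

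Among non-ATPase cap genes 10 of 11 lay above the control. Psmd6, a scaffold subunit of the cap lid, stood at 8.55, 9.15 and 9.01 (0.60 ± 0.10 in the exercise control) and was the 1 cap gene past 1.5-fold, a call that was lost with a pseudocount of 16 (0.58). Psmd12, another lid subunit, stood at 9.69, 10.07 and 9.38 (0.38 ± 0.07). Psmd1, a large base subunit, differed by 0.42 ± 0.08, Psmd11 by 0.40 ± 0.05 and Psmd8 by 0.36 ± 0.03. The exception was Psmd14, the deubiquitinase that cuts ubiquitin chains from the substrate, at 8.09, 7.66 and 7.91 (-0.44 ± 0.14). Psmd14 was also the lowest gene of the group on average. Reads of Psmd1 may belong in part to Gm21972, an annotated gene of the same strand that holds 56.8% of the 50-base words in the last 500 bases of Psmd1 transcripts.

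The core genes held the widest differences in both directions. Psmb3, a non-catalytic beta subunit (chromosome 11, 97703399 to 97713500), stood at 9.09, 9.997 and 9.40 (0.90 ± 0.08). Psma3 (chromosome 12, 70974621 to 70996347) stood at 9.97, 10.70 and 9.68 (0.72 ± 0.06). Both were highest in the exercise control. Psma5 (chromosome 3, 108256926 to 108279974) stood at 8.35, 7.39 and 8.43 (-0.96 ± 0.14), and Psmb7, the trypsin-like catalytic subunit (chromosome 2, 38588036 to 38644087), at 10.09, 9.42 and 10.15 (-0.67 ± 0.07). Both were lowest there, and SQH differed from the control by 0.08 for Psma5 and 0.05 for Psmb7. The other catalytic genes were closer to level. Psmb5, the chymotrypsin-like subunit, differed by -0.01 ± 0.07 and Psmb6, the caspase-like subunit, by -0.20 ± 0.06. Subunits that sit in equal numbers in the assembled core thus had differences in 1 comparison that ran from -0.96 to 0.90.

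Coordinates are of build GRCm38 in the GENCODE M21 annotation. Several of these values have a limit from shared sequence. In the last 500 bases of its transcripts Psma5 shares 62.5% of 50-base words with other annotated genes, Psmb3 shares 63.2%, Psma3 35.9% and Psmb5 54.5%. How reads with several matches were counted is not given in the sources used here, so the values of Psma5, Psmb3, Psma3 and Psmb5 are uncertain on that account. Psmb7 shares no such word, but 405 of its exonic bases overlap Nek6 on the opposite strand. Nek6 stood at only 4.15, 5.11 and 3.07 in the same library order, far below Psmb7.

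**Figure D2:**
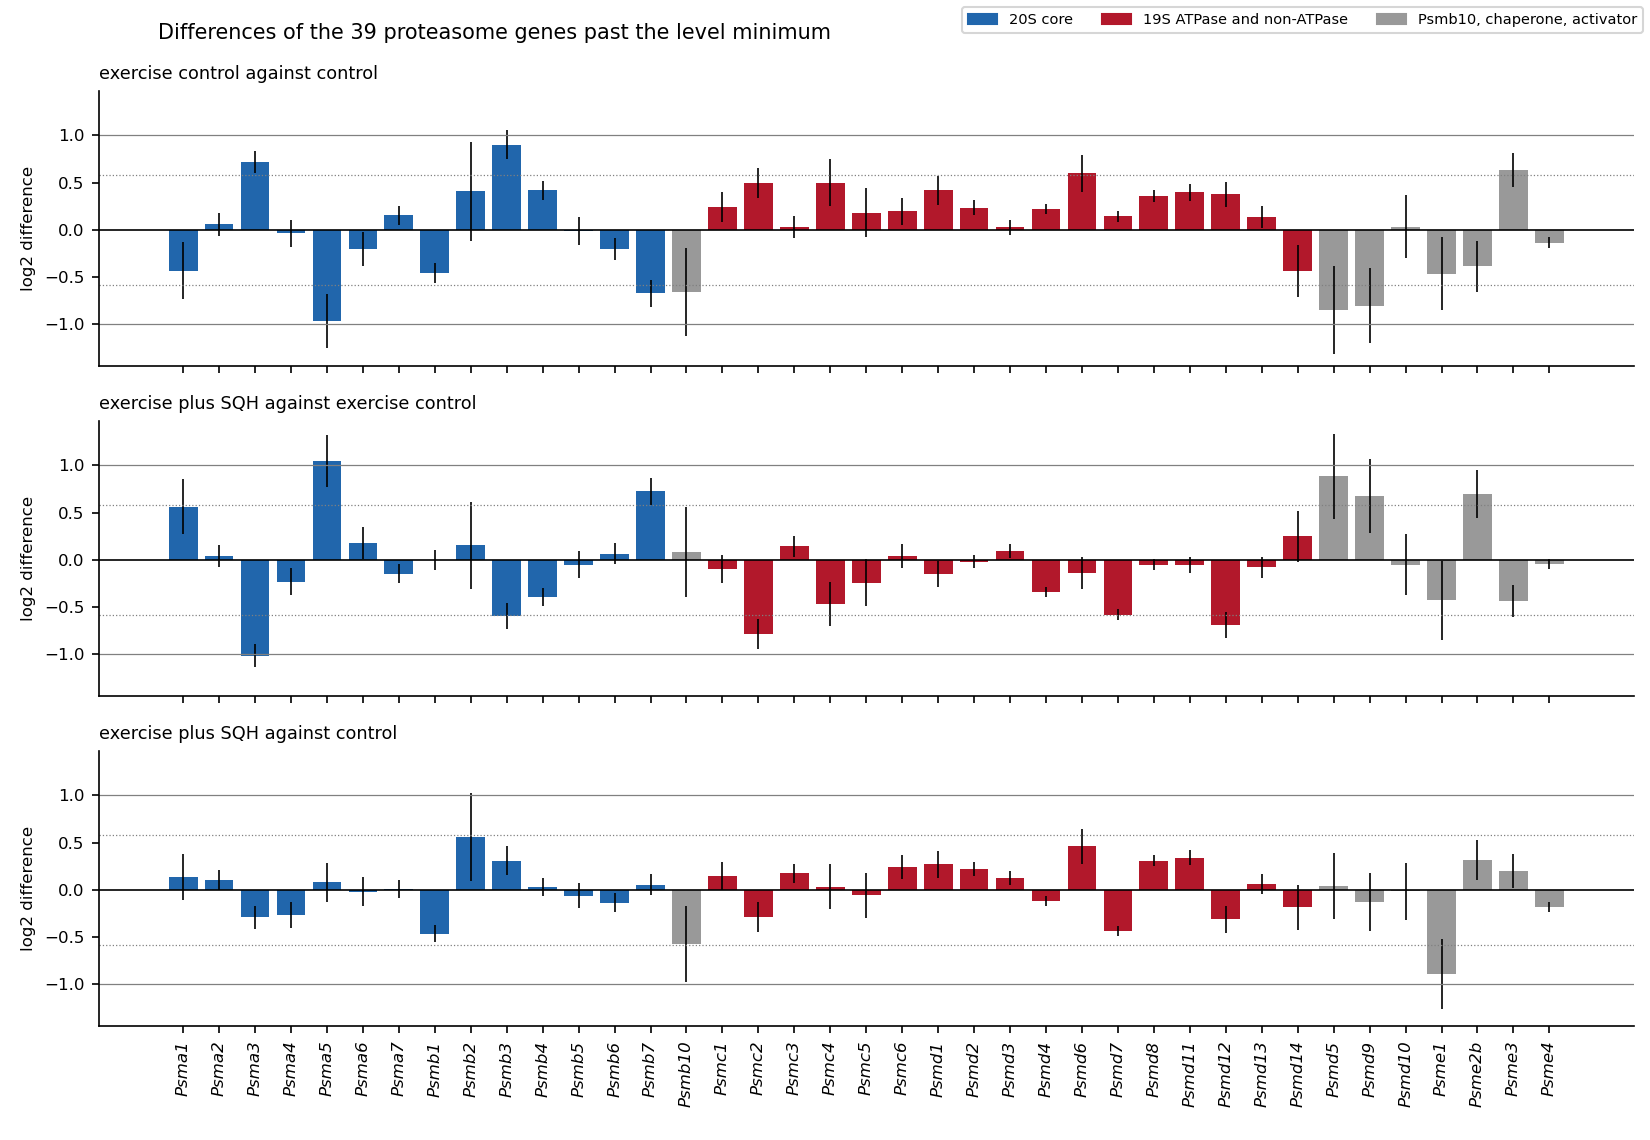
Log2 difference (vertical axis) of the 39 members past the level minimum (horizontal axis) in the 3 comparisons, with core genes in blue, cap genes in red and the others in grey. Error bars are 2 standard errors of counting, dotted lines mark 1.5-fold and solid grey lines 2-fold. In the top panel every red bar except that of Psmd14 lies above 0.

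**Figure D3:**
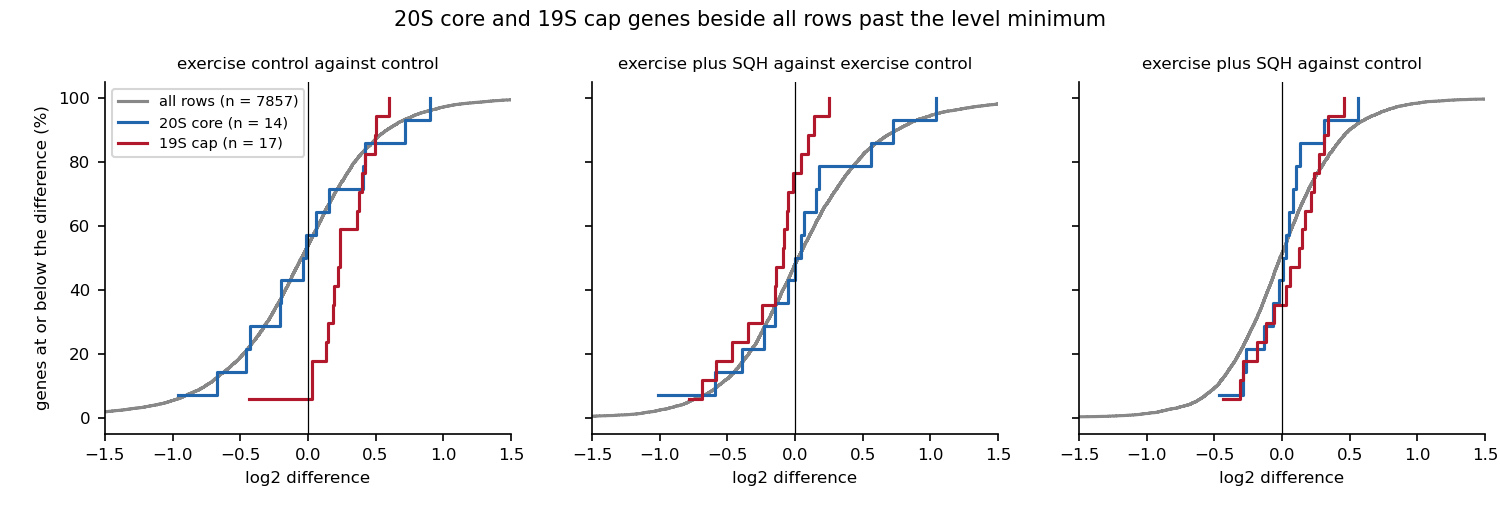
Cumulative share of genes (vertical axis, percent) by log2 difference (horizontal axis) for the 14 standard core genes, the 17 cap genes and all 7857 rows past the minimum, 1 panel per comparison. In exercise control against control the cap line lies to the right of the line of all rows up to about 0.4, with medians of 0.24 and -0.05, and the core line follows that of all rows.

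Cap assembly chaperones bind the ATPases before the cap is complete. Psmd5 stood at 6.87, 6.03 and 6.92 (-0.84 ± 0.23 in the exercise control). Psmd9 stood at 7.30, 6.497 and 7.18 (-0.80 ± 0.20), and 1849 of its exonic bases overlap a non-coding gene of the opposite strand, Gm26745. Psmd10, which encodes gankyrin, was level at 7.30, 7.34 and 7.29 (0.04 ± 0.17). So 2 of the 3 chaperones were at least 1.5-fold below the control in the exercise control, beside 15.5% of all rows. In that library Psmd5 rests on about 55 reads and Psmd9 on about 76. All 6 ATPase genes lay above the control, beside 46.3% of rows, with Psmc3 and Psmc5 within 2 standard errors of counting. Whether chaperone and ATPase genes differ was not tested.

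The comparison of exercise plus SQH with the exercise control asks what SQH added to exercise. Here 5 of 39 members were at least 1.5-fold higher (12.8%, beside 14.8% of all rows) and 4 at least 1.5-fold lower (10.3%, beside 9.28%). At 2-fold 1 member was higher (2.6%, beside 5.68%) and 1 lower (2.6%, beside 2.33%). The higher one was Psma5 (1.04 ± 0.14) and the lower one Psma3 (-1.01 ± 0.06), both of the alpha ring, with the levels given above. Psma5 stayed past 2-fold under neither centring nor quantile normalization of the libraries, and with a pseudocount of 16 neither gene passed it (0.98 for Psma5 and -0.998 for Psma3). Psma5 is also among the genes whose 3' sequence is mostly shared.

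The other members called higher were Psmd5 (0.88 ± 0.23), Psmb7 (0.73 ± 0.07), Psme2b (0.70 ± 0.13) and Psmd9 (0.68 ± 0.20). Called lower were Psmc2 (-0.78 ± 0.08), Psmd12 (-0.69 ± 0.07) and Psmb3 (-0.60 ± 0.07). Cap genes as a group had a median of -0.09, with 4 of 17 above the exercise control, and core genes a median of 0.02 with 7 of 14 above. Over all rows 52.1% lay above and the median was 0.03. Because the exercise control library is the reference here and the tested library in the previous comparison, opposite signs in both are not separate results.

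Exercise plus SQH against control leaves that library out. Of 39 members 0 were at least 1.5-fold higher (0.0%, beside 7.41% of all rows) and 1 at least 1.5-fold lower (2.6%, beside 6.36%). No member passed 2-fold, beside 1.76% of rows higher and 1.26% lower. The 1 called gene was Psme1, described below. Cap genes had a median of 0.13 with 11 of 17 above the control, and core genes a median of 0.02 with 8 of 14 above, beside a median of -0.02 and 48.7% above for all rows. Psmd6 (0.46 ± 0.09), Psmd11 (0.34 ± 0.04) and Psmd8 (0.31 ± 0.03) lay above the control here too. Psmd7, a lid subunit that pairs with the deubiquitinase, stood at 12.32, 12.47 and 11.88, and was lower with SQH than in the control by -0.44 ± 0.03. Psmb1 was lower in both exercised libraries, at 10.89, 10.43 and 10.42, with -0.46 ± 0.05 in each comparison with the control.

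The spread of the members over the 3 libraries was no wider than that of all rows past the level minimum. Those rows were not matched to the members for level, on which counting error depends. At the stricter minimum, the upper quartile of levels, 30 of the 39 members remained. From lowest to highest library the median range of the 39 members was 0.42, beside 0.49 for all rows, and 13 of 39 (33.3%) spanned at least 1.5-fold, beside 39.3% of rows. The exercise control was the highest library for 19 of 39 members, beside 34.3% of rows, and the lowest for 10, beside 40.1% of rows.

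Immunoproteasome genes were far below their standard partners. Psmb8 and Psmb10 were lower in both exercised libraries than in the control, and Psmb9 was within 2 standard errors of counting. Psmb8 (chromosome 17, 34197721 to 34201454), which replaces Psmb5, stood at 5.64, 4.57 and 3.52, from about 53, 20 and 15 reads. Its difference was -1.06 ± 0.38 in the exercise control and -2.12 ± 0.42 with SQH, each against the control. The 3 libraries are in descending order, with the control highest. Psmb9, which lies near it on chromosome 17 (34181987 to 34187764) and replaces Psmb6, stood at 4.86, 4.95 and 5.40, from about 31, 26 and 55 reads. Neither exercised library differed from the control in Psmb9 by more than 2 standard errors of counting (0.09 ± 0.38 and 0.54 ± 0.32). Psmb10, which replaces Psmb7, stood at 6.77, 6.11 and 6.19, so it was lower than the control by -0.66 ± 0.23 in the exercise control and by -0.58 ± 0.20 with SQH. Psmb8 and Psmb9 did not pass the level minimum and are not in the counts of calls. On opposite strands, 498 exonic bases of Psmb8 overlap the antisense gene Gm20496 and 212 of Psmb9 overlap Tap1. Reads from shared bases cannot be assigned without knowing how strand was handled. Whether those bases lie at the tail ends that are sequenced was not examined.

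As a share of each catalytic pair, Psmb8 made up 5.58% of Psmb8 plus Psmb5 in the control (95% exact binomial interval 4.21 to 7.24). That share was 2.77% (1.70 to 4.25) in the exercise control and 1.41% (0.791 to 2.31) with SQH. Psmb9 made up 1.98% (1.35 to 2.81), 2.41% (1.58 to 3.52) and 3.12% (2.36 to 4.05) of its pair with Psmb6 in the same order. Psmb10 made up 9.06% (7.55 to 10.8), 9.12% (7.0 to 11.6) and 6.03% (4.91 to 7.32) of its pair with Psmb7. The Psmb8 share was thus highest and the Psmb9 share lowest in the control, although the Psmb9 intervals overlap. The Psmb10 share was lower with SQH than in the control, with intervals that do not meet. The Psmb10 share in the exercise control was close to that of the control, and both genes were lower there, Psmb7 by -0.67 and Psmb10 by -0.66.

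**Figure D4:**
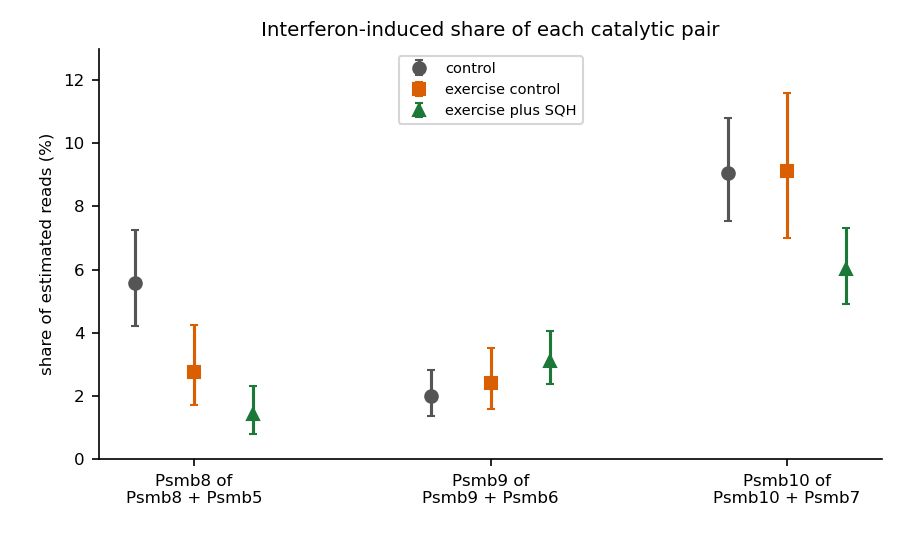
Share of estimated reads (vertical axis, percent) taken by each immunoproteasome gene within its pair with the standard subunit it replaces (horizontal axis), with circles for control, squares for exercise control and triangles for exercise plus SQH. Bars are 95% exact binomial intervals for counting error only. The Psmb8 intervals of control (4.21 to 7.24) and exercise plus SQH (0.791 to 2.31) do not meet. Neither do those of Psmb10 (7.55 to 10.8 and 4.91 to 7.32), whereas the Psmb9 intervals overlap.

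The PA28 activator genes went different ways. Psme1 (chromosome 14, 55578123 to 55581529) stood at 7.16, 6.69 and 6.26. It was lower by -0.46 ± 0.19 in the exercise control and by -0.89 ± 0.19 with SQH than in the control, with the libraries in the same order as for Psmb8. Psme2, its partner subunit and close neighbour on chromosome 14 (55587441 to 55591113), stood at 5.61, 4.95 and 5.94. Psme2b, a copy of Psme2 on chromosome 11 (48945354 to 48946190), stood at 8.18, 7.80 and 8.49. Psme2 and Psme2b share most of their 3' sequence (66.8% and 56.3% of 50-base words shared with other genes), so their reads may be divided between them and neither value is certain. Both were lowest in the exercise control and highest with SQH. Psme3, the gene of the nuclear activator PA28 gamma, stood at 8.74, 9.37 and 8.93 and was 1.55-fold above the control in the exercise control (0.64 ± 0.09). Psme4 differed by -0.14 ± 0.03 in that comparison.

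Genes of antigen presentation by MHC class I and of the interferon response were given beside them, since immunoproteasome genes belong to both. Of 19 listed genes 8 passed the level minimum. In the exercise control 1 of these 8 was at least 1.5-fold higher than in the control and 3 lower, beside 10.1% and 15.5% of all rows. The list median was -0.26. The class I genes H2-K1 (9.95, 9.28 and 9.35) and H2-D1 (10.38, 9.64 and 9.99) were highest in the control, as Psmb8, Psmb10 and Psme1 were. The interferon-induced Ifit3 was lowest in the control, at 5.30, 7.49 and 6.59. Tap2, a subunit of the peptide transporter, was low in the exercise control alone, at 8.69, 6.16 and 9.43. With SQH against the control the list median was -0.11, with 2 genes at least 1.5-fold higher and 1 lower. Over all rows these shares were 7.41% and 6.36%.

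Leukocytes are rich in immunoproteasome subunits, so their markers are given as well. All 4 leukocyte markers were below the level minimum, with summed linear levels of 59.0, 54.7 and 92.1, and 3 of them were listed at 0 in the exercise control and 1 with SQH. The 6 macrophage markers summed to 228.9, 249.6 and 436.1, of which C1qa made up most and alone passed the minimum. Of the 4 T cell markers Cd3e, Cd3g and Cd8a were listed at 0 in every library. Of the B cell markers reported here, Cd79a and Ms4a1 were listed at 0 in every library, and Cd74 stood at 4.43, 4.06 and 2.77. Macrophage and leukocyte sums were thus highest with SQH. Psmb8 and Psme1 were lowest in that library, whereas Psmb9, Psme2 and Psme2b were highest in it. Psmb10 was highest in the control. Laptm5 (5.43, 5.77 and 6.35) made up most of the leukocyte sum. Single markers were divided: C1qa, C1qb, Cd68, Csf1r, Laptm5 and Ptprc were highest with SQH. Adgre1 (1.49, 3.05 and 0) and Lyz2 (2.91, 3.24 and 2.80) were lowest there, and Coro1a (2.49, 0 and 1.16) and Cd52 (1.48, 0 and 0) were highest in the control. With SQH against the control, Ptprc (0.16 ± 0.67), Lyz2 (-0.11 ± 0.70) and Coro1a (-1.33 ± 1.03) were within 2 standard errors of counting. C1qa, C1qb, Cd68, Csf1r and Laptm5 were past that. The part of these cells in the immunoproteasome values was not tested.

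Factors that assemble, inhibit or accompany the proteasome were divided in direction. Of 25 listed symbols 22 were found and 21 passed the level minimum. In the exercise control 3 of 21 were at least 1.5-fold higher than in the control and 0 lower, beside 10.1% and 15.5% of all rows. Above 0 were 10 of 21, beside 46.3% of rows, with a median of -0.11. With SQH against the exercise control 7 of 21 lay above 0, beside 52.1% of rows, and the median was -0.18. Pomp, the maturation factor of the core, stood at 10.63, 10.20 and 10.97. The core assembly chaperone genes went apart, with Psmg1 at 8.02, 7.52 and 6.96 and Psmg4 at 6.45, 7.09 and 6.08. Psmf1, an inhibitor of the core, stood at 6.42, 6.72 and 5.89. Adrm1 and Shfm1 encode the cap subunits Rpn13 and Sem1, which the symbol rule does not reach. Adrm1, named here after its values were seen, stood at 9.36, 10.06 and 9.30 (0.71 in the exercise control against control), and Shfm1 at 10.67, 10.33 and 10.68 (-0.34).

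All 11 listed genes of the NFE2L1 route, by which subunit genes are raised together, passed the level minimum. Nfe2l1 itself stood at 11.93, 11.14 and 11.55, and was lowest where most cap genes were highest. Ddi2, the protease that releases active NFE2L1 from the endoplasmic reticulum, stood at 8.09, 9.48 and 8.87 and was highest there (1.39 in the exercise control against control). Bach1, a repressor at antioxidant response elements, stood at 8.67, 9.39 and 9.14. Maff, a small partner factor, stood at 5.33, 6.51 and 7.28. In that comparison 3 of 11 were at least 1.5-fold higher and 1 lower, beside 10.1% and 15.5% of all rows. The list median was 0.10. With SQH against the control 2 were higher and 0 lower, beside 7.41% and 6.36% of rows, with a median of 0.01.

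Muscle ubiquitin ligases mark contractile and other proteins for the proteasome in atrophy. Trim63, which encodes MuRF1, stood at 10.75, 11.81 and 11.72, and Fbxo32, which encodes atrogin-1, at 11.65, 12.54 and 12.51. These were the 2 of 11 tested ligases past 1.5-fold in the exercise control against control and again with SQH against control. Over all rows 10.1% and 7.41% were at least 1.5-fold higher in these 2 comparisons. The list medians were 0.15 and 0.21. Both genes thus stood higher in each exercised library than in the control.

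**Figure D5:**
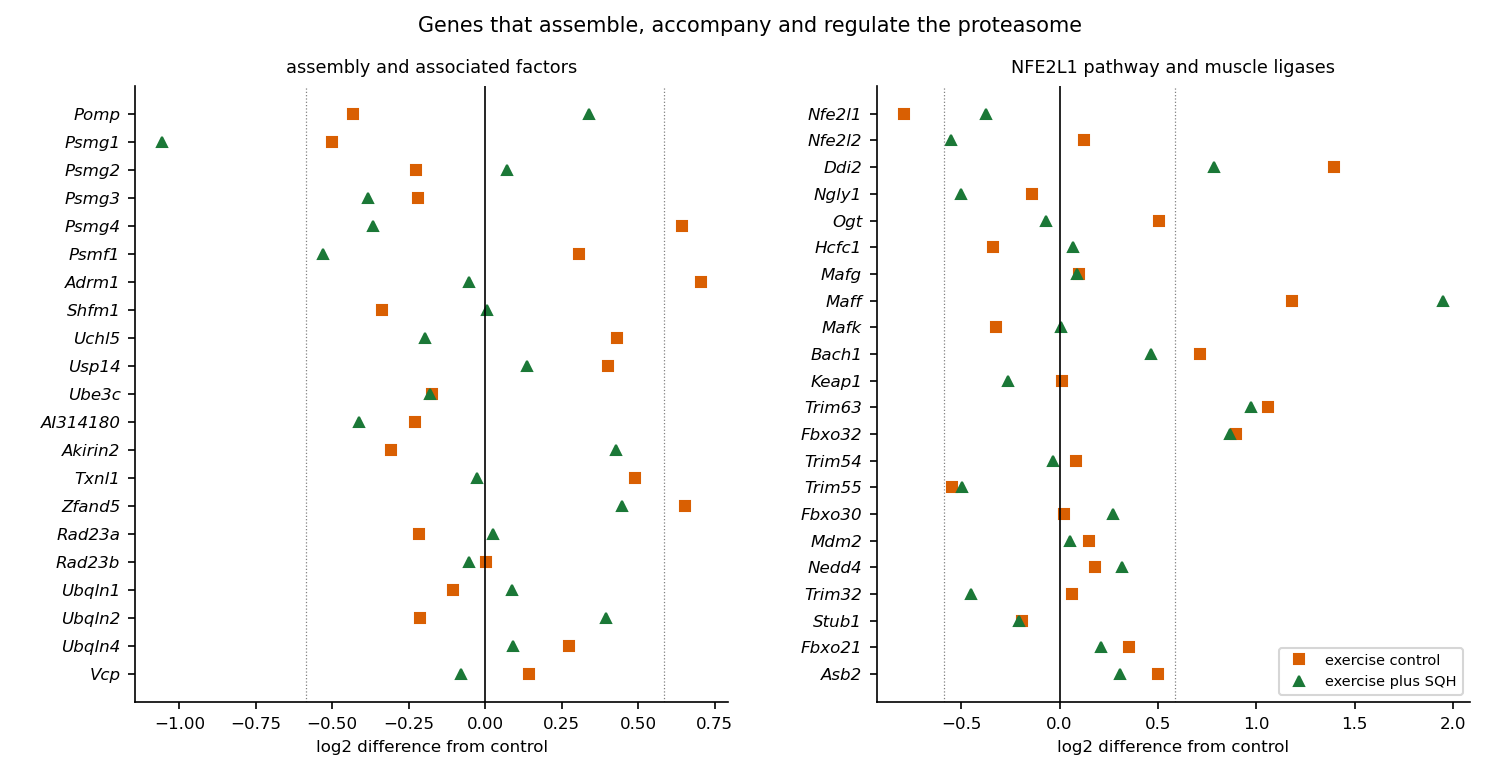
Log2 difference from the control (horizontal axis) of genes past the level minimum that assemble or accompany the proteasome (left) and of NFE2L1 route and muscle ligase genes (right), with squares for exercise control and triangles for exercise plus SQH and dotted lines at 1.5-fold. Trim63 and Fbxo32 lie to the right for both libraries, Adrm1 for the exercise control alone.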

How the data were processed

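The data are 3 QuantSeq 3' messenger RNA libraries of mouse skeletal muscle, 1 per group, with groups taken from the sample titles. The authors deposited 1 log2 value per gene symbol and library; per the file headers a column carries only a sample code. Per the submitters' processing notes Bowtie2, edgeR and mm10 were used. The counter, scaling, annotation, strand handling and treatment of reads with several matches remain not given in the sources used here. Linear values up to 9 bunch at whole multiples of a step (0.939, 1.19 and 0.766), with 100.0%, 95.7% and 84.6% within 0.2 step. Dividing linear values by the step gave approximate reads, used only for counting errors and intervals; no count model was fitted. With 1 library per group no test was possible, and genes were called by size.

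The rule fixed for naming genes gave values in all libraries for members spanning 1.5-fold, all immunoproteasome and activator genes, the extremes of each role, and up to 4 genes per related list. The members and lists were chosen with earlier results of these data known. The call rule and the step estimate were tried on simulated data that held counting error only. Such data cannot show how reliable a call between single libraries is. A few genes of the related lists are not reported here. Scaling, level minimum, pseudocount and shared sequence were varied. Positions and transcript sequences are GENCODE M21 (GRCm38), in which all 45 members were found, and promoters RefSeq (GRCm38.p6). Python 3.11.15 with numpy 2.4.6, pandas 2.3.3 and scipy 1.17.1 was used.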

Additional observations from a re-analysis of the deposited data

How the results depend on the processing

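No paired analysis was possible because each group holds 1 library; for the same reason no replicate could be left out, and without the exercise control library only exercise plus SQH against control remains. In exercise control against control, 16 of 17 cap genes lay above the control as deposited, after centring and after quantile normalization. The cap median was 0.31 after centring and 0.305 after quantile normalization, the core median 0.05 after both (0.047 and 0.050, from -0.03) and the median of all members 0.21 and 0.23 (from 0.14). With no level minimum that median was 0.075, with 8 members at least 1.5-fold lower and 1 at least 2-fold lower; with the minimum at the upper quartile it was 0.18, with 2 at least 1.5-fold lower. In exercise plus SQH against exercise control, centring gave medians of -0.12 for all members, -0.053 for the core and -0.17 (-0.165) for the cap, quantile normalization gave -0.02 for the core and the upper quartile minimum -0.027 for the core. Members at least 2-fold higher numbered 0 after centring, quantile normalization, a pseudocount of 16 or leaving out members of shared 3' sequence, and members at least 2-fold lower 0 with the pseudocount and 2 with no minimum. Members at least 1.5-fold higher numbered 3 with the upper quartile minimum and 3 without members of shared sequence, an alternative chosen after seeing the data, as were those on cap and core. In exercise plus SQH against control, 2 members were at least 1.5-fold lower after quantile normalization, 2 with no minimum and 0 with the upper quartile minimum, 1 was at least 2-fold lower with no minimum, and the core median was -0.01 (-0.006) with the upper quartile minimum. The stricter or absent minimum, and leaving out members of shared sequence, test fewer or more genes by construction. Centring shifts all differences of a comparison by 1 constant, and the pseudocount shrinks differences most at low levels, also by construction. For quantile normalization the cause was not tested. Of 89 values of single called members under the alternatives, 0 changed sign and 0 moved by more than 2 standard errors of counting. A change of level minimum leaves the value of a gene unaltered, so those values were the same by construction. The genes were also picked for differences of at least 1.5-fold, so this count says little about robustness. With the pseudocount of 16, Psmd6 (0.58) and Psmb10 (-0.56) in exercise control against control and Psmb3 (-0.58) in exercise plus SQH against exercise control fell short of 1.5-fold, as did Psmb10 (-0.58) and Psmd9 (0.57) in the same 2 comparisons, in that order, with quantile normalization. Depth limits Psma8 and Psmb11 most, at 6 reads or fewer, then Psmb8, Psmb9, Psme2 and Psmc3ip, each at 80 or fewer.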

Other observations

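The 1 member of the symbol rule that is no subunit, Psmc3ip, stood at log2 levels of 5.66, 4.84 and 5.45 in the order control, exercise control, SQH, and 385 of its exonic bases overlap Mlx on the opposite strand, which stood at 6.95, 6.92 and 6.84. Tap1, the neighbour that overlaps Psmb9, stood at 3.08, 5.42 and 4.01.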
